A study of Mus musculus with 6 samples.

Results

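The cilia and flagella associated protein genes, whose symbols begin with Cfap and a number, encode parts of the motile axoneme and factors that build it. They were taken as the protein-coding genes of GENCODE M21 (mm10) with such a symbol, joined to the read counts by Ensembl identifier, which gave 31 genes of the 55487 in the table. Membership rests on the symbol alone, but the family was chosen with earlier results of these data known. The libraries were made from polyadenylated RNA of whole mouse testes at postnatal day 19, with 3 samples labelled control and 3 labelled dsfb, and the design text speaks of 3 pairs of testes from different mice without saying what a pair is. By the title of the series the dsfb mice are homozygous for SFB alleles of Hormad1 and of Hormad2, a pair of genes whose products coat the axes of chromosomes in meiosis. The labels give no strain, no further genotype for the controls and no account of what the SFB alleles change. The comparison asks how Cfap transcripts differ between testes of the 2 genotypes at an age when the first wave of germ cells is passing through meiotic prophase.

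A motile cilium or sperm tail is built around the axoneme, a ring of doublet microtubules that surrounds a central apparatus of singlet microtubules with projections. Dynein arms on the doublets make the tail bend, and radial spokes, tethers and the nexin-dynein regulatory complex pass signals between the central apparatus and the arms. In the testis the tail itself is assembled in spermatids, while many of its genes are already transcribed in pachytene spermatocytes.

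Levels are given in CPM, read counts relative to library size, with the libraries scaled by TMM. Values of the 3 libraries of a group are listed in the order of replicates 1, 2 and 3. One control library stood apart. The spermatid markers summed to 89.8, 89.9 and 912 CPM in the controls and to 17, 15.7 and 17.3 CPM in dsfb, so that control replicate 3 held 10.2 times the mean of the other controls. The depth of the groups also differed, with 23983373 to 27707291 counted reads in control and 15335130 to 17306363 in dsfb. Hormad1 and Hormad2 had log2 fold changes of -0.69 (SE 0.28, edgeR adjusted p = 0.0597) and -0.96 (SE 0.14, edgeR adjusted p = 0.000757), which checks no label, as the effect of the alleles on the transcripts is not given.

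All 31 genes could be tested, and 31 fell and 0 rose in the dsfb testes (edgeR quasi-likelihood test, adjusted p under 0.05). Over all 19826 tested genes 36.2% fell and 30.7% rose. No member rose at an unadjusted p under 0.05 either (0 of 31), nor with DESeq2 or limma-voom (0 and 0). The median log2 fold change of the members was -4.93, a 30.6-fold fall, against a median of 0.02 over all tested genes. Falls of at least 16-fold were seen in 19 of the 31 members (61.3%), against 10.5% of all tested genes. In 31 of 31 members every dsfb library lay below every control library, a pattern that 38.5% of all tested genes showed. The members sit on 14 chromosomes, all of them autosomes. In 5 members (Cfap52, Cfap58, Cfap97d1, Cfap97d2 and Cfap221) the dsfb counts alone would not have passed the filter on low counts. These were tested because of their control level, so the filter favoured a fall in them. They are included in the counts and the median above. Without control replicate 3, 30 of 30 tested members fell, with a median log2 fold change of -4.50. After all libraries were thinned to the smallest total, again 30 of 30 tested members fell.

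Summed over the 31 genes, the family reached 4865, 5469.6 and 6378 CPM in the control libraries and 324, 343 and 340.1 CPM in the dsfb libraries. The dsfb libraries were close to each other, and their mean was 6.03% of the control mean. As these are whole testes, fewer cells of a type and less RNA per cell cannot be told apart. Summed markers of mid to late pachytene spermatocytes, with 9245 ± 1511 CPM in control and 304 ± 16.4 CPM in dsfb (SD, n = 3), fell to 3.29% in the same libraries, and all 10 of them passed the test as lower. In dsfb this sum was mostly 1 gene, as Hspa2 made up 261 of the mean 304 CPM and kept 15.9% of its control level. The other genes on that list kept between 0.0172% (Adam3) and 6.0% (Aurkc) of theirs. In Adam3 and some others of the 10 the dsfb counts alone would not have passed the filter on low counts, which favoured a fall in them. Sertoli cell markers went the other way, with 9 of 9 higher, where 30.7% of all tested genes rose. Their summed level was 208% of that in control. The part of these cell types in the fall of the Cfap genes was not tested.

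**Figure D1:**
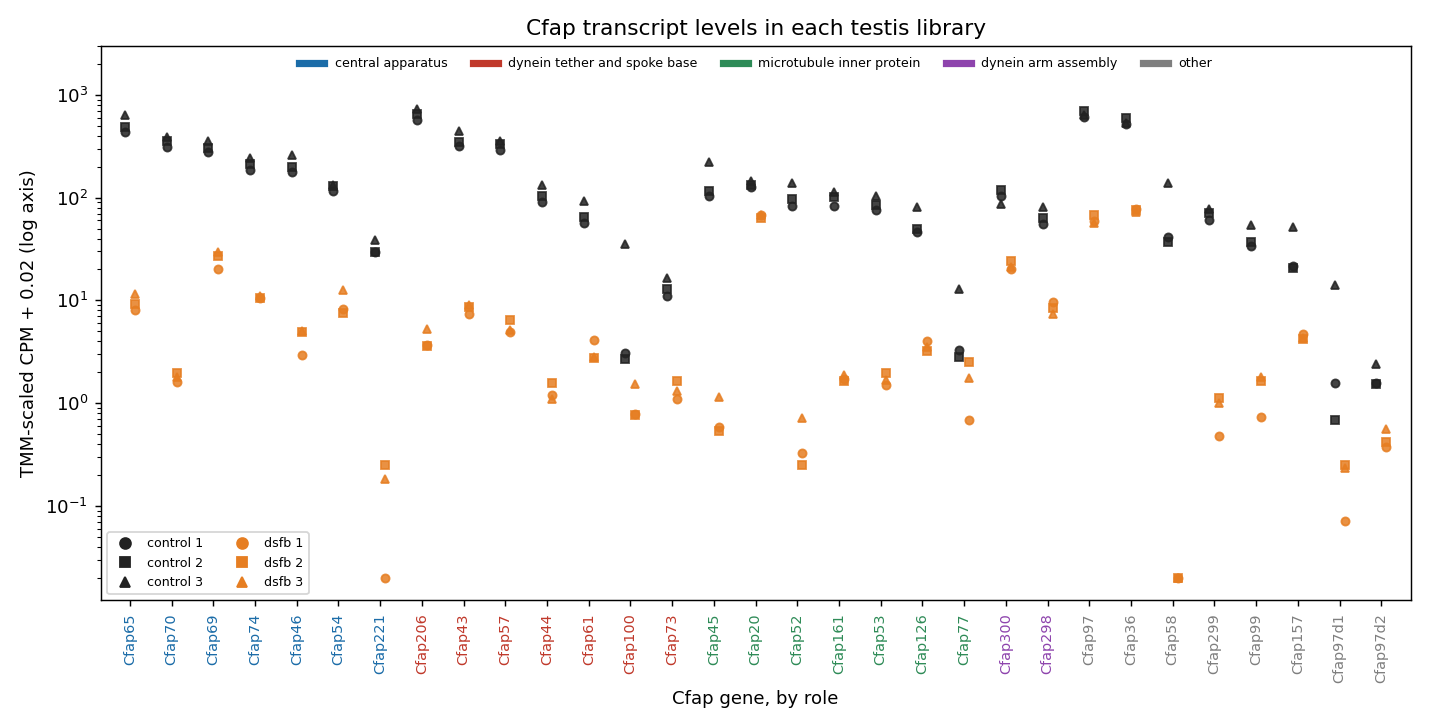
Level of each of the 31 Cfap genes in every library, in TMM-scaled CPM plus 0.02 on a log axis, with control libraries in black, dsfb libraries in orange and symbols coloured by role. Every orange point lies below every black point of the same gene, and the 3 dsfb points of Cfap58 stand for 0 reads.

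As the members fell together, their promoters were read for motifs of factors known to act on cilia or meiotic genes. RefSeq promoter windows on GRCm38.p6, from 250 bases before to 50 bases after a transcription start, were found for 24 of the 31 members. The X-box half-site GTTGCCA, the motif of the RFX factors that switch on ciliary genes, was present on either strand in windows of 8 of these 24 genes (33.3%). It was present in 5.02% of all 27025 genes with a window. Of the axonemal partner genes described further on, 36 had a window, and 14 of these 36 (38.9%) held it. The shorter form GTTGCC, which is contained in the first motif, was in 10 of 24 members (41.7%), in 61.1% of partners and in 14.1% of all genes. The motif GGCAGTT, bound by MYB factors such as MYBL1, was in 1 member, Cfap161 (4.17% of members, 13.9% of partners and 4.76% of all genes). CACGTG, an E-box of the kind bound by TCFL5, was in 3 members (12.5% of members, 11.1% of partners and 8.09% of all genes). The windows differed in base composition, with a mean GC content of 56.9% in the members' windows and 53.8% in all windows. A match is a run of letters and not a measured binding site.

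The stretches of up to 150 bases that end where annotated exons begin are shown for the 6 members with a half-site there, and for Cfap206, the member with the highest level per exon length in control, which has none. Each is written 5′ to 3′ on the strand of its gene, with GTTGCCA or its reverse complement in capitals. The Cfap161 stretch holds 2 directly adjoining copies, 67 and 60 bases before its start, with a further copy at 40 bases that lies outside the stretch. The Cfap44 stretch holds 2 copies, 130 and 20 bases before the start.
Cfap161 (chr7:83794881-83795030, minus strand, 191 to 42 bases before the start): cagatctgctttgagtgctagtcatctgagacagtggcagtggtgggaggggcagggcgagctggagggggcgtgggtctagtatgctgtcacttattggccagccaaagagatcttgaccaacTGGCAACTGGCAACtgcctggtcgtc
Cfap44 (chr16:44394646-44394795, plus strand, 153 to 4 bases before the start): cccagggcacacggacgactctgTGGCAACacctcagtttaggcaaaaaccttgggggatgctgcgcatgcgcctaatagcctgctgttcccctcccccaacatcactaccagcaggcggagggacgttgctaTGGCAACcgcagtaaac
Cfap58 (chr19:47937525-47937674, plus strand, 187 to 38 bases before the start): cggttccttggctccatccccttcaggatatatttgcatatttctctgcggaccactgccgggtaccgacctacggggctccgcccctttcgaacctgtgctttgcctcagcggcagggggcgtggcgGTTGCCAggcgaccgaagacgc
Cfap300 (chr9:8042876-8043025, minus strand, 150 to 1 bases before the start): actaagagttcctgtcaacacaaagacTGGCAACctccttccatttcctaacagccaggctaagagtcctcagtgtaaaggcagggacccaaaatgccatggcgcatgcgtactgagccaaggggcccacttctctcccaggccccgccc
Cfap20 (chr8:95434870-95435019, minus strand, 150 to 1 bases before the start): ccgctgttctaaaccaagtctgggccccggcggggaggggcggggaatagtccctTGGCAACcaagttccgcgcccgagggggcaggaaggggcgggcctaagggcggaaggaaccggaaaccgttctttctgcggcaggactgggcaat
Cfap97d2 (chr8:13705739-13705888, plus strand, 150 to 1 bases before the start): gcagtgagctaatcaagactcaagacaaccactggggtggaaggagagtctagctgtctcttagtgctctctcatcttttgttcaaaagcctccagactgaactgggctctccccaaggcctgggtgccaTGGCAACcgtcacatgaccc
Cfap206 (chr4:34730207-34730356, minus strand, 150 to 1 bases before the start): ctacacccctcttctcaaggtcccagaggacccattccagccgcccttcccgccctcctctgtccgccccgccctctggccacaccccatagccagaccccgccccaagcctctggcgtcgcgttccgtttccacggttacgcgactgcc

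Members with and without the half-site both fell. The 8 that hold it had a median log2 fold change of -3.65, and the 16 with a window that lack it had -5.24. Of those that hold it, Cfap58 had 0 dsfb reads. The others were Cfap44 at -6.44, Cfap161 at -5.86, Cfap74 at -4.32, Cfap298 at -2.98, Cfap300 at -2.24, Cfap97d2 at -2.05 and Cfap20 at -1.03 on the log2 scale. Those that lack it, among which Cfap46 and Cfap100 hold the shorter form GTTGCC, ran from -7.99 (Cfap52) to -1.96 (Cfap77). The medians describe these genes and were not tested.

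The central apparatus group held 7 members, and 7 of 7 fell (median log2 fold change -5.63, range -7.94 to -3.63). Together they went from 1777 ± 266 to 61.4 ± 9.82 CPM (SD, n = 3). Cfap46, Cfap54, Cfap74 and Cfap221 belong to a single projection of the central apparatus, named C1d. Cfap46 (ENSMUSG00000049571, chromosome 7, 139600951 to 139683817, minus strand) had 179, 197 and 258 CPM in the controls and 2.9, 4.93 and 4.97 CPM in the dsfb libraries, a log2 fold change of -5.63 (SE 0.25, edgeR adjusted p = 1.31e-06). Cfap221, also known as Pcdp1, was at 29.5, 29.8 and 38.7 CPM in control and 0, 0.229 and 0.162 CPM in dsfb, with 7 dsfb reads in all, and fell by 246-fold. Its dsfb libraries were at or near 0, and the fold moved to a log2 value of -8.58 when dsfb replicate 2 was left out and -7.33 at the other end of the leave-one-out range. Cfap54, the member with the longest exon sequence and a gene needed for ciliary beating in mice, fell less, from 116, 130.3 and 133 CPM in control to 8.23, 7.46 and 12.6 CPM in dsfb (13.4-fold). Cfap74 went from 187, 212 and 245 CPM in control to 10.6, 10.5 and 11.1 CPM in dsfb, a 20-fold fall, so the C1d genes ranged from 13.4-fold to 246-fold.

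Cfap65 and Cfap70, which encode proteins of the other, C2, side of the central apparatus, were the group's most abundant transcripts per exon length in control. Cfap65, a gene needed for the sperm tail, was at 440.5, 487 and 643 CPM in control and 8.13, 9.12 and 11.6 CPM in dsfb (log2 -5.77, SE 0.21, edgeR adjusted p = 5.91e-07). Cfap70 (ENSMUSG00000039543, chromosome 14, 20394193 to 20452226, minus strand), a tetratricopeptide repeat protein, was at 312, 359 and 391 CPM in control and 1.57, 1.95 and 1.78 CPM in dsfb (log2 -7.64, SE 0.15, edgeR adjusted p = 1.5e-07). Cfap69, known from the sperm midpiece and from olfactory cilia, kept more of its level, at 279, 307 and 358 CPM in control and 20.4, 26.9 and 29.3 CPM in dsfb (8.11% of control). Control replicate 3 was the highest control for each of these 7 genes, by 1.08 to 1.39 times the mean of the other controls.

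Proteins that tether the dynein arms or stand at the base of the radial spokes formed the group that kept the smallest share of its control level. Its 7 members summed to 1558 ± 236 CPM in control and 24.8 ± 1.63 CPM in dsfb, 1.59% of control, and 7 of 7 fell (median log2 -5.48). Cfap206 (ENSMUSG00000028294, chromosome 4, 34688559 to 34730206, minus strand), a protein of the spoke base, was at 574, 652 and 731 CPM in control and at 3.66, 3.56 and 5.29 CPM in dsfb. This was a 156-fold fall (log2 -7.29, SE 0.20, edgeR adjusted p = 2.02e-07). Cfap61, which also acts at the spoke base, was at 56.5, 64.2 and 93.2 CPM in control and 4.06, 2.75 and 2.81 CPM in dsfb, a 22.1-fold fall. Cfap57, a protein of the inner dynein arms, was at 290.4, 333 and 356 CPM in control and 4.88, 6.48 and 5.18 CPM in dsfb and fell 59.3-fold.

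Cfap43 and Cfap44 encode partners in one tether complex that holds the head of an inner dynein arm. Cfap43 (ENSMUSG00000044948, chromosome 19, 47736857 to 47919287, minus strand) went from 316, 349 and 445 CPM in control to 7.36, 8.61 and 8.91 CPM in dsfb, and Cfap44 from 91.6, 104 and 134 CPM in control to 1.17, 1.55 and 1.08 CPM in dsfb. Their log2 fold changes were -5.48 (SE 0.17) and -6.44 (SE 0.22), and in both genes the groups were far apart. Cfap73 and Cfap100, partners in the complex called modifier of inner arms, had fewer reads in control than the genes above. Cfap73 was at 11.1, 12.9 and 16.5 CPM in control and 1.07, 1.61 and 1.3 CPM in dsfb (10.2-fold). Cfap100 had 3.02, 2.64 and 35.1 CPM in the controls, so that most of its reads came from replicate 3, and 0.762, 0.746 and 1.51 CPM in dsfb. Its log2 fold change of -3.75 (SE 1.09, edgeR adjusted p = 0.0167) became -1.51 without that library, still past the threshold (edgeR adjusted p = 0.000553). Without dsfb replicate 1 or 2 Cfap100 no longer passed (edgeR adjusted p = 0.0637 and 0.0641), nor did it with limma-voom (log2 -2.72, adjusted p = 0.13).

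Microtubule inner proteins line the inside of the doublets and hold them together. All 7 members of this group passed the test as lower, but they covered the widest range of the role groups whose members kept reads in dsfb, from -7.99 to -1.03 on the log2 scale. Cfap52 and Cfap45 fell most. Cfap52 (ENSMUSG00000020904, chromosome 11, 67924806 to 67965651, minus strand) was at 83.5, 96.4 and 139.9 CPM in control and 0.305, 0.229 and 0.702 CPM in dsfb (254-fold, edgeR adjusted p = 1.62e-06), and its log2 value was -8.58 without dsfb replicate 3. Cfap45 was at 104, 116 and 220.3 CPM in control and 0.559, 0.516 and 1.13 CPM in dsfb (198-fold), with control replicate 3 at 2 times the mean of the other controls. Cfap53, known for its part in left-right patterning, went from 76.4, 84.6 and 104 CPM in control to 1.47, 1.95 and 1.67 CPM in dsfb (52-fold). Cfap161 went from 83.7, 101 and 114 CPM in control to 1.68, 1.61 and 1.84 CPM in dsfb (58.1-fold) and Cfap126, also called Flattop, from 45.9, 49.2 and 81.9 CPM in control to 4.01, 3.21 and 3.46 CPM in dsfb (16.5-fold).

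Cfap20 fell least of all 31 members. It encodes a protein at the inner junction of the doublets and is also present in many cells without motile cilia. The gene (ENSMUSG00000031796, chromosome 8, 95420249 to 95434869, minus strand) was at 126, 134 and 145 CPM in control and 67.3, 63.5 and 67.1 CPM in dsfb, a 2.04-fold fall (log2 -1.03, SE 0.09, edgeR adjusted p = 3.65e-05). Its libraries were close to each other within each group, and it had the smallest SE of the family. Cfap77, named because its call was not stable, was at 3.3, 2.81 and 13 CPM in control and 0.66, 2.52 and 1.73 CPM in dsfb, where dsfb replicate 2 lay just below control replicate 2. Its log2 fold change was -1.96 (SE 0.71, edgeR adjusted p = 0.0395), and -0.94 without control replicate 3. Leaving out any single dsfb library ended the call (edgeR adjusted p = 0.0507 to 0.116), as did upper-quartile or library-size-only scaling (edgeR adjusted p = 0.0598 and 0.0696) and limma-voom (adjusted p = 0.0788).

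**Figure D2:**
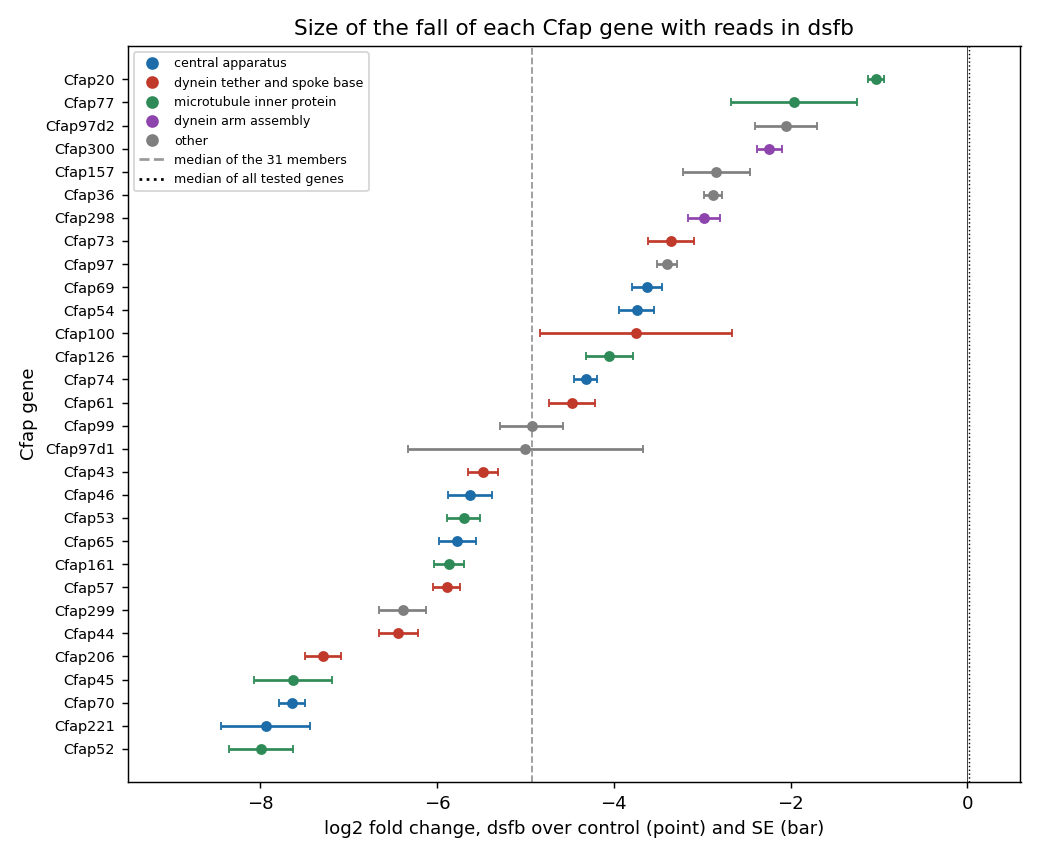
Log2 fold change of dsfb over control for the 30 Cfap genes with reads in dsfb (points, coloured by role) with the SE from edgeR (bars), ordered by size, beside the median of the 31 members (dashed) and of all tested genes (dotted). The points run from -7.99 for Cfap52 to -1.03 for Cfap20, and the bars are widest for Cfap97d1 and Cfap100.

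Cfap298 and Cfap300 act in the cytoplasm, where dynein arms are assembled before they enter the tail, and both fell less than the group medians of the structural members. Cfap300 (ENSMUSG00000053070, chromosome 9, 8021672 to 8042823, minus strand) was at 103, 118 and 87.2 CPM in control and 20.4, 23.9 and 21 CPM in dsfb, a 4.74-fold fall (SE of log2 0.14, edgeR adjusted p = 7.53e-06). It was lower in control replicate 3 than in the other controls (0.787 times their mean), unlike 28 of the 31 members. Cfap298 was at 54.9, 63.6 and 80.6 CPM in control and 9.65, 8.32 and 7.29 CPM in dsfb (7.87-fold). Its value is uncertain, as 53.6% of its exonic bases are shared with genes annotated on the opposite strand and whether reads were counted by strand is not stated in any label or header used.

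The remaining 8 members have no agreed place in the groups above, and 8 of 8 fell. Cfap97, the mouse homologue of the fly gene hemingway, and Cfap36, which encodes a partner of the small GTPase ARL3, were the most abundant of them per exon length. Cfap97 was at 610, 693 and 640.3 CPM in control and 59.6, 67.4 and 56.9 CPM in dsfb (10.6-fold, SE of log2 0.11). Cfap36 (ENSMUSG00000020462, chromosome 11, 29221532 to 29247409, minus strand) was at 527, 602 and 537 CPM in control and 77.4, 76.2 and 72.1 CPM in dsfb (7.38-fold, edgeR adjusted p = 3.83e-07) and kept the highest level of the family in dsfb. Both were at about the same level in all 3 controls.

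Cfap58 and Cfap157, which are needed for a normal sperm tail, had their highest level in control replicate 3. Cfap58 (ENSMUSG00000046585, chromosome 19, 47937675 to 48035387, plus strand) had 41, 37.3 and 138 CPM in control and 0 reads in all 3 dsfb libraries (edgeR adjusted p = 0.000435). With a floor of 3 counts over the dsfb group it was at least 1334-fold lower, or at least 726-fold without control replicate 3. It was the only member with 0 reads in every dsfb library, and it lies 18.4 kb from Cfap43, in divergent orientation. Cfap157 was at 21.7, 20.6 and 51.6 CPM in control and 4.67, 4.19 and 4.27 CPM in dsfb (7.14-fold). Cfap99 went from 34.1, 36.9 and 54.2 CPM in control to 0.711, 1.61 and 1.78 CPM in dsfb (30.6-fold), and Cfap299 from 61.1, 70.8 and 78.4 CPM in control to 0.457, 1.09 and 0.972 CPM in dsfb (83.7-fold). Cfap157 and Cfap299 each share over 10% of their exonic bases with another annotated gene, so both are uncertain to that extent.

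Cfap97d1 and Cfap97d2 had the fewest reads of the family in control. Cfap97d1 was at 1.54, 0.661 and 14 CPM in control, most of it in replicate 3, and had 9 reads in dsfb (0.0508, 0.229 and 0.216 CPM). Its call (log2 -5.00, SE 1.33, edgeR adjusted p = 0.0114) was not made by limma-voom (adjusted p = 0.118), and without control replicate 1 or 3 it did not pass the filter on low counts. The ratio of its mean level in control replicates 1 and 2 to that in dsfb was 6.67, where the fall fitted over all libraries was 32-fold. Cfap97d2 lay between 1.53 and 2.36 CPM in control and between 0.356 and 0.54 CPM in dsfb (4.14-fold, edgeR adjusted p = 0.00145).

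Across the family, control replicate 3 was above the mean of the other controls in 28 of 31 members, with a median ratio of 1.36. Over all tested genes the median ratio was 0.998, and 49.7% lay above 1. The ratio exceeded 2 in 5 members: Cfap97d1 (12.8), Cfap100 (12.4), Cfap77 (4.26), Cfap58 (3.52) and Cfap157 (2.44). Of all tested genes 8.65% exceeded it. The 11 spermatid markers with a mean of at least 1 CPM in control had ratios from 6.02 to 68.1, while summed markers of mid to late pachytene cells were at 1.29 and those of Sertoli cells at 0.771. The 5 named members thus lay above the pachytene markers in this ratio, and the part of later germ cells in their control level was not tested. Their falls without that library stayed below 0 on the log2 scale in the 4 of them that could still be tested.

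**Figure D3:**
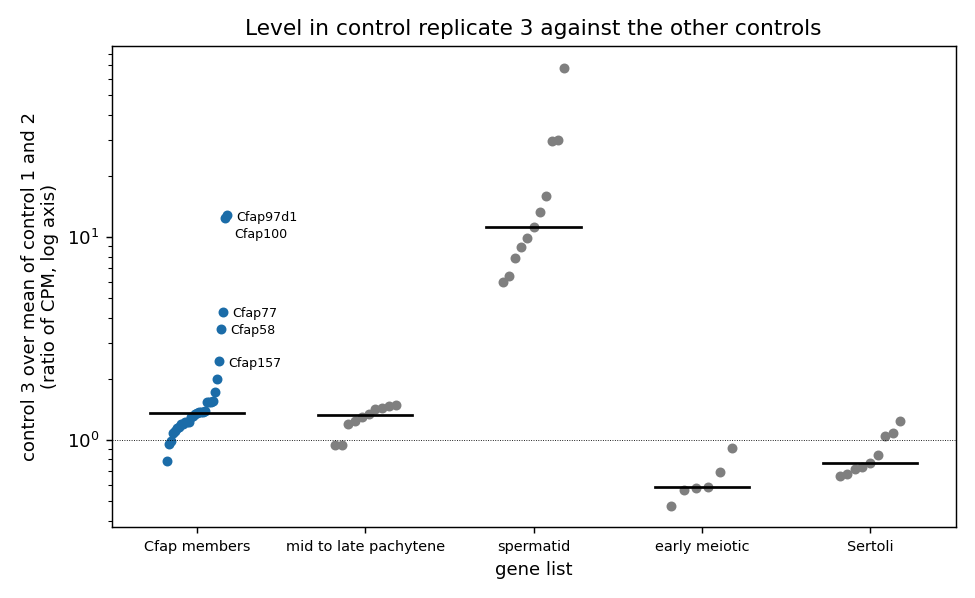
Ratio of the level in control replicate 3 to the mean of control replicates 1 and 2 (CPM, log axis) for each Cfap gene (blue) and for marker genes of 4 cell types with a control mean of at least 1 CPM (grey), with the median of each list as a bar. Most Cfap genes lie near the pachytene markers, and Cfap97d1 and Cfap100 reach the range of the spermatid markers.

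To rank single members, levels were divided by exon length. Cfap206 was the most abundant in control, at 263 ± 31.6 CPM per kb of exons (SD, n = 3), followed by Cfap36 at 202 ± 15 and Cfap97 at 126 ± 8.14. Cfap70 (82.5 ± 9.22) and Cfap57 (81.2 ± 8.24) came next and did not differ beyond their spread. The order was different in dsfb, where Cfap36 was highest at 27.4 ± 1.01 CPM per kb, followed by Cfap20 at 14.8 ± 0.477 and Cfap300 at 13.7 ± 1.17. Cfap206 had dropped to rank 9 and Cfap70 to rank 22 of 31. In reads, Cfap36, Cfap20, Cfap97, Cfap69 and Cfap300 together supplied 31.5% of the family's level in control and 74.4% in dsfb. The other 26 members went from 3815 ± 717 to 86 ± 7.48 CPM, 2.26% of control. These 5 were picked as the highest in dsfb, so the shares describe them and test nothing.

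**Figure D4:**
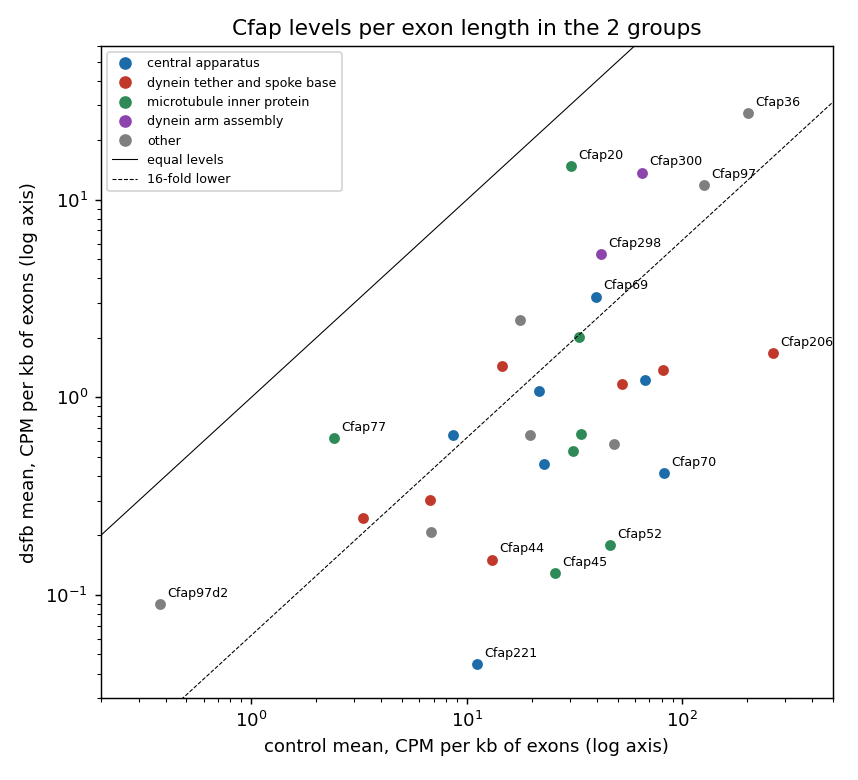
Mean level of each Cfap gene with reads in dsfb, in CPM per kb of exons on log axes, in control (horizontal) and dsfb (vertical), coloured by role, with lines for equal levels and for a 16-fold fall. All points lie below the line of equal levels, and Cfap20, Cfap300, Cfap36 and Cfap97 keep the highest dsfb levels.

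Most genes listed as partners of the Cfap proteins were lower too. Of 10 partners in the central apparatus 10 fell (median log2 -4.87). Spag17, a large scaffold of a central projection, was at 344, 383 and 411 CPM in control and 1.17, 2.18 and 1.67 CPM in dsfb, Spag6l at 430.4, 503 and 517 CPM in control and 5.38, 5.79 and 7.34 CPM in dsfb, and Wdr93 at 124, 144 and 133 CPM in control and 7.72, 9.41 and 9.18 CPM in dsfb. Of 12 genes of the spoke base, the nexin-dynein regulatory complex and the axonemal ruler 12 fell (median log2 -5.69). Among these are Wdr66 and Maats1, which encode the proteins called CFAP251 and CFAP91 but carry other symbols in this annotation. Wdr66 went from 154, 176 and 219.6 CPM in control to 2.23, 2.52 and 3.08 CPM in dsfb (70.1-fold) and Maats1 from 34, 40.7 and 64.9 CPM in control to 0.305, 0.402 and 0.432 CPM in dsfb (121-fold), the latter named for its protein. Ccdc39 of the ruler fell 14.2-fold and Iqcg of the regulatory complex 9.85-fold. In Maats1 and some others on this list the dsfb counts alone would not have passed the filter on low counts. The same was true of Spag16 on the central apparatus list. These genes were tested because of their control level, so the filter favoured a fall in them.

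All 5 inner arm partners fell (median log2 -4.54), with Wdr63 and Ttc29 down 134-fold and 227-fold and Wdr78 18.5-fold. Of 10 assembly factors 9 were tested and 9 fell (median log2 -3.81), among them Zmynd10 (47.1-fold), Lrrc6 (25.8-fold) and Spag1 (10.1-fold). Of 9 microtubule inner protein partners 7 fell and 2 did not pass (median log2 -3.20), and 8 fell in 7 of 16 alternatives. Enkur fell 29.8-fold and Nme7 4.32-fold. Spag17, Iqcg (48.1%), Ccdc39, Nme7 and Zmynd10 each share over 10% of their exonic bases with another gene and are uncertain to that extent. These counts stand beside the 36.2% of all tested genes that fell.

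The 2 partners that did not pass in the reported fit, Efhc2 and Ribc1, are X-linked, and so is Gm7173, the gene that RefSeq calls Cfap47. Efhc2 and Ribc1 were singled out after their values were seen. Gm7173 (ENSMUSG00000073077) is outside the 31 members because of its symbol in this annotation. It encodes a central apparatus protein needed for the sperm tail and was at 14.5, 16.3 and 20.4 CPM in control and 35, 47.8 and 38.2 CPM in dsfb. Every dsfb library lay above every control library, and the gene rose 2.36-fold (log2 1.24, SE 0.18, edgeR adjusted p = 0.000622), opposite in direction to the 7 central apparatus members. Its log2 fold change was 1.09 to 1.64 over the alternatives and it passed in each. Efhc2 was at 8.05, 6.4 and 19.6 CPM in control and 10.9, 10.7 and 9.61 CPM in dsfb (log2 -0.13, SE 0.40, edgeR adjusted p = 0.793), and its dsfb libraries lay above control replicates 1 and 2 and below control replicate 3. It turned to a higher call without control replicate 3 (log2 0.50, edgeR adjusted p = 0.0153) and passed in none of the other 15 alternatives. Ribc1 was at 10.7, 11.1 and 34.1 CPM in control and 7.31, 9.12 and 8.64 CPM in dsfb, with every dsfb library below every control library (log2 -1.16, SE 0.45, edgeR adjusted p = 0.0531). Ribc1 was called lower in 7 of 16 alternatives, among them the replicate block (edgeR adjusted p = 0.0346), DESeq2 (adjusted p = 0.00586) and each fit without 1 control library (edgeR adjusted p = 0.0245 to 0.0341). Its log2 fold change was -0.41 without control replicate 3, so that its call is not settled. Of 766 tested X-linked genes 74.0% rose and 8.49% fell, with a median log2 fold change of 1.03.

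**Figure D5:**
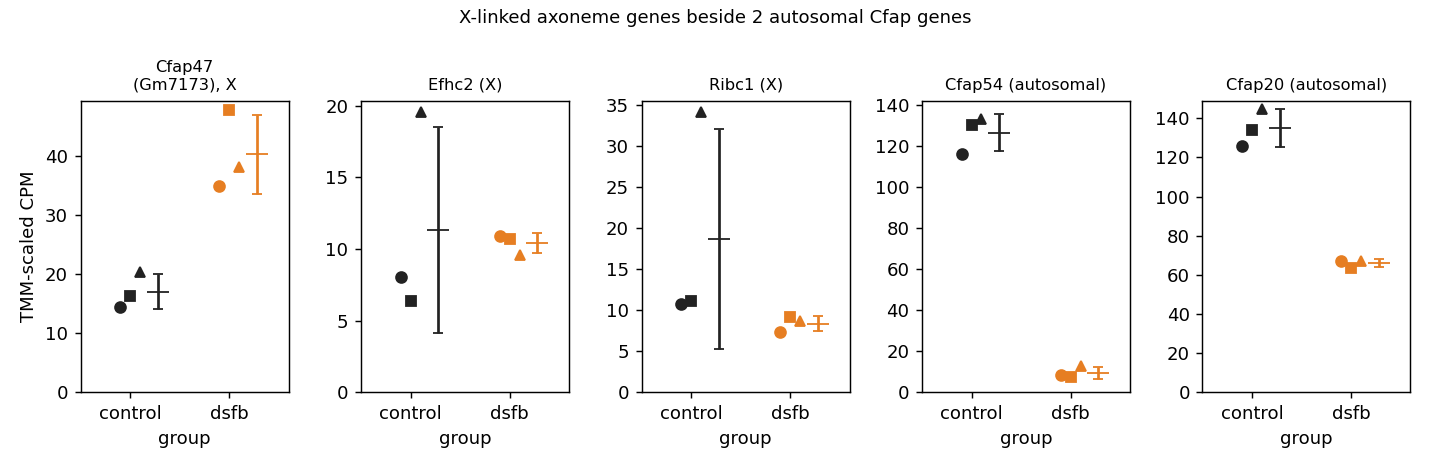
Levels in every library (points, circle, square and triangle for replicates 1, 2 and 3) with mean and SD (bar) in TMM-scaled CPM for Cfap47 (Gm7173), Efhc2 and Ribc1, which are X-linked, and for the autosomal Cfap54 and Cfap20. Cfap47 is higher in all 3 dsfb libraries, and both autosomal genes are lower in dsfb. The dsfb points of Efhc2 lie above control replicates 1 and 2 and below control replicate 3. Those of Ribc1 lie below every control point, closer to control replicates 1 and 2 than to 3.

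Of 8 transcription factors known to act on ciliary or late meiotic genes 6 fell and 2 did not pass, where 36.2% of all tested genes fell. Rfx2, the RFX factor of meiotic and haploid germ cells, was at 305, 358 and 519.7 CPM in control and 33.5, 33.6 and 36.4 CPM in dsfb (11.4-fold, edgeR adjusted p = 6.02e-06). Foxj1, the main factor of motile cilia elsewhere in the body, was at 19.2, 17.6 and 88.5 CPM in control and 1.12, 1.72 and 2.43 CPM in dsfb (23.7-fold, and 10.7-fold without control replicate 3). Tcfl5 fell 5.8-fold, Crem 9.85-fold, Sox30 4.14-fold and Mybl1, which starts the pachytene programme, 2.21-fold. Rfx3 was at 21.5, 18.2 and 28.8 CPM in control and 19.7, 21.8 and 21 CPM in dsfb (edgeR adjusted p = 0.549), and Rfx1 at 29.9, 26.5 and 111 CPM in control and 36.5, 30.5 and 33.6 CPM in dsfb (edgeR adjusted p = 0.238), so both overlapped between the groups.

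Other ciliated cells were looked for through genes of multiciliated duct epithelium. Of 6 such genes Sntn had 0 reads in all 6 libraries. Mcidas, Gmnc and Cdhr3 were each at or below 0.324 CPM in every library, and Ccno was at 3.02, 2.02 and 4.03 CPM in control and 2.69, 2.01 and 2.75 CPM in dsfb (edgeR adjusted p = 0.442). Deup1, a centriole amplification gene, was the exception, at 42.9, 41.1 and 139 CPM in control and 1.52, 0.975 and 1.3 CPM in dsfb (58.2-fold lower, edgeR adjusted p = 0.000113, and 33.4-fold lower without control replicate 3). Among genes listed as markers of germ cells before the pachytene stage, the early meiotic ones gave mixed calls. Of 6 early meiotic genes 3 rose and 2 fell, where Dmc1 rose 2.36-fold, Spo11 fell 4-fold and Meioc fell 2.1-fold. Of 6 spermatogonial genes 5 rose and 0 fell (edgeR), among them Sohlh1 (2.24-fold), Dmrt1 (2-fold) and Kit (1.67-fold). Over all tested genes 30.7% rose and 36.2% fell. Summed, the early meiotic genes were at 875, 890 and 604 CPM in control and 586, 587 and 509.9 CPM in dsfb, and the spermatogonial genes at 214, 191 and 153 and 353, 323 and 352 CPM. Meioc alone made up 467 of the mean 789.6 CPM of the early meiotic sum in control and 222 of 561 CPM in dsfb.

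Among the markers that fell, Crisp2 and Cetn1 of pachytene cells were down 228-fold and 360.1-fold, and Adam3 went from 518, 597 and 792 CPM to at most 0.172 CPM in any dsfb library. Of 12 spermatid markers 11 were tested and 11 fell, where 36.2% of all tested genes fell and 30.7% rose. In Acrv1, Catsper4 and some others of them the dsfb counts alone would not have passed the filter on low counts. They were tested because of their control level, so the filter favoured a fall in them. Acrv1 was at 13.1, 13.3 and 105 CPM in control, Catsper4 at 5.77, 5.2 and 61.4 CPM and Tssk1 at 18.6, 19.5 and 122 CPM, each highest in control replicate 3, and no dsfb library was above 3 CPM in any of them. Acrv1 fell 182-fold, Catsper4 250.4-fold and Tssk1 19.2-fold. Without control replicate 3 these falls were 56.3-fold, 58.2-fold and 7-fold. Catsper4 was not called by limma-voom (adjusted p = 0.0635), and DESeq2 gave Acrv1 and Catsper4 no adjusted p. Prm1, named because its groups overlapped, passed as lower (edgeR adjusted p = 0.0333). Among Sertoli markers Cldn11, Gata4 and Inha rose 2.29-fold, 2.08-fold and 2.47-fold. Of 5 Leydig cell markers 2 rose, Star and Insl3 (the latter with 64.8% of its exonic bases shared with Jak3), and Cyp11a1 did not pass (edgeR adjusted p = 0.291) but was called higher without control replicate 3 (edgeR adjusted p = 0.00049). Star lost its call without control replicate 2, dsfb replicate 1 or dsfb replicate 2 (edgeR adjusted p = 0.0722 to 0.106), and Insl3 without control replicate 1 or dsfb replicate 3 (edgeR adjusted p = 0.0589 and 0.0721).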

How the data were processed

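The deposited table holds raw gene counts for 6 testis libraries, 3 per group, and the submitters' processing notes name STAR 2.6.0 and the build mm10. How reads were counted (tool, annotation, strand) is not stated there. Of 55487 identifiers 55227 were found in GENCODE M21, and those not found (260) held 0.0238% of counts. Counts were fitted with edgeR 4.0.16 in R 4.3.3 (filterByExpr, TMM, glmQLFit, glmQLFTest, group only), and p-values were adjusted by Benjamini-Hochberg across the tested genes, with calls made under 0.05. The SE was obtained by dividing the size of the log2 fold change by the root of the F statistic, and fold changes carry a prior count of 0.125. Floors cover counting error only. Levels per kb use the union of annotated exons. Self-tests on counts drawn with known changes were run first. Every pair of libraries of one group differed by more than sampling noise (chi-square per degree of freedom, 4.09 to 74.1).

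The members and gene lists were chosen with earlier results of these data known. Every member could be named; of each partner and marker list up to 3 genes with the smallest p, and every regulator, were named, with exceptions stated; 1 gene under this rule is not reported here. Alternatives were other scalings, filters, DESeq2 1.42.0, limma-voom (limma 3.58.1), thinning, a replicate block and leaving out each library. One was chosen after seeing the data: leaving out members that share over 10% of exonic bases with another gene.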

Additional observations from a re-analysis of the deposited data

How the results depend on the processing

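No member changed direction in 492 refits over 16 alternatives, and 28 of the 31 members passed in each one in which they were tested and given an adjusted p. In 10 refits a call was lost, in Cfap77, Cfap100 and Cfap97d1. DESeq2 gave Cfap100 no adjusted p. The members called lower numbered 28 to 31, with 29 to 31 when 1 library was left out. The median of the members (-4.93) was -4.53 with library size only, -4.44 with limma-voom and -5.16 to -4.50 with 1 library left out; without the 3 members that overlap other genes it was -4.97. The summed level in dsfb (6.03% of control) was 7.95% with library size only and 7.32% with upper-quartile scaling. These scalings moved the median of all genes by 0.40 and 0.28, and relative to it the members' median was -4.94 and -4.95, against -4.95 in the reported fit. They also moved the share of calls that were higher, from 45.9% to 60.9% and 57.2%, and no filter on low counts moved it to 35.5%. Leaving out 1 library moved 5 members by over 1.5 times: Cfap100, Cfap77, Cfap58, Cfap221 and Cfap52; Cfap97d1 could not be fitted without control replicate 1 or 3. Depth limits the dsfb levels of Cfap58, Cfap221 and Cfap97d1 (0, 7 and 9 reads over the group).

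With the replicate number as a block the members' median was -4.60 and 31 of 31 fell, among 13431 genes called against 13256 without it. Deviations of same-numbered libraries correlated at 0.0709, 0.0607 and 0.116, and each library correlated best with its own number. These correlations are small, and deviations from a group mean depend on each other, so they cannot decide whether the numbers mark pairs. The design text speaks of 3 pairs but ties no number to a pair.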
